A study of Mus musculus with 6 samples.

Results

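The genes described here are the transcription factors of the homeobox and related developmental families, measured in 2T3 cells, an osteoblast precursor line from the mouse. They were selected by gene symbol alone. Members are the numbered genes of the Hoxa, Hoxb, Hoxc and Hoxd clusters, of the Msx, Dlx, Pax, sine oculis (Six3, Six4 and Six5 among them), Tbx, Sox, Gli and Twist families, and the Fox genes other than Foxm1, each represented by its probe with the highest mean over the arrays. This gave 95 genes of 8841 with a single symbol on the array: 26 Hox, 9 Msx and Dlx, 9 Pax and sine oculis, 7 Tbx, 13 Sox, 5 Gli and Twist and 26 Fox genes. The rule itself uses no measured value, except to choose between the probes of Sox11, which had more than 1.

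Total RNA came from 3 static control samples and 3 samples exposed to simulated microgravity on a Random Positioning Machine, a device that keeps reorienting a culture in space so that no single direction of pull persists. Both groups were grown in OptiCells, closed cassettes with gas-permeable walls, and each sample was read on 1 array. Neither a treatment other than rotation nor the length of exposure is given in the sources used here, and the labels do not say whether samples of a group were separate cultures, so the p-values reflect only how much these samples scatter, and that scatter may be technical. The series title frames the comparison as the effect of simulated microgravity on gene expression in these cells.

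Transcription factors of these families bind DNA and set the identity of tissues along the body axes. Hox genes lie in clusters and specify position along the trunk and the limb, and Msx, Dlx, Twist and some Fox factors shape the skull and act on osteoblasts. Sox9 with Sox6 directs cartilage formation, Gli factors carry Hedgehog signals, Pax and Tbx factors pattern somites and limbs, and Foxo factors respond to stress and insulin. In osteoblasts, Msx2, Dlx3, Dlx5 and Twist1 are known as regulators around Runx2, the master factor of bone, which was not analysed here.

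No member passed the threshold. Of the 92 members tested, 0 had a limma adjusted p under 0.05, against 0.28% of all 8586 genes tested, and the lowest member value was an adjusted p of 0.18 (Six5). At an unadjusted p under 0.05 there were 3 members, Six5 and Dlx1 with lower and Foxc2 with higher values in simulated microgravity. That is 3.26% of the members, where 11.5% of all genes reached this level. Lower values at this level were found for 2 members, against 5.7% of all genes, and higher values for 1 member, against 5.79%. The groups did not overlap in 4 members (4.35%), Pax3 being the other one, against 16.6% of all genes. Of these, 3 were lower and 1 was higher, where 8.07% and 8.51% of all genes were. No test of these shares was run.

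The sizes of change were small. The median size of the log2 change (simulated microgravity minus static) was 0.11 over members and 0.20 over all genes, while the median standard error was 0.23 in both. The median signed change was 0.03 for the members and 0.05 for all genes, with 51 members higher and 41 lower, against 4855 and 3731 of all genes. Changes ran from -1.03 (Sox8) to 0.78 (Foxf1), and only Sox8 reached 2-fold. Of the 62 members above the floor on every array, 49 had a 95% interval that lay within 2-fold in both directions, and 13 had a wider interval.

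**Figure D1:**
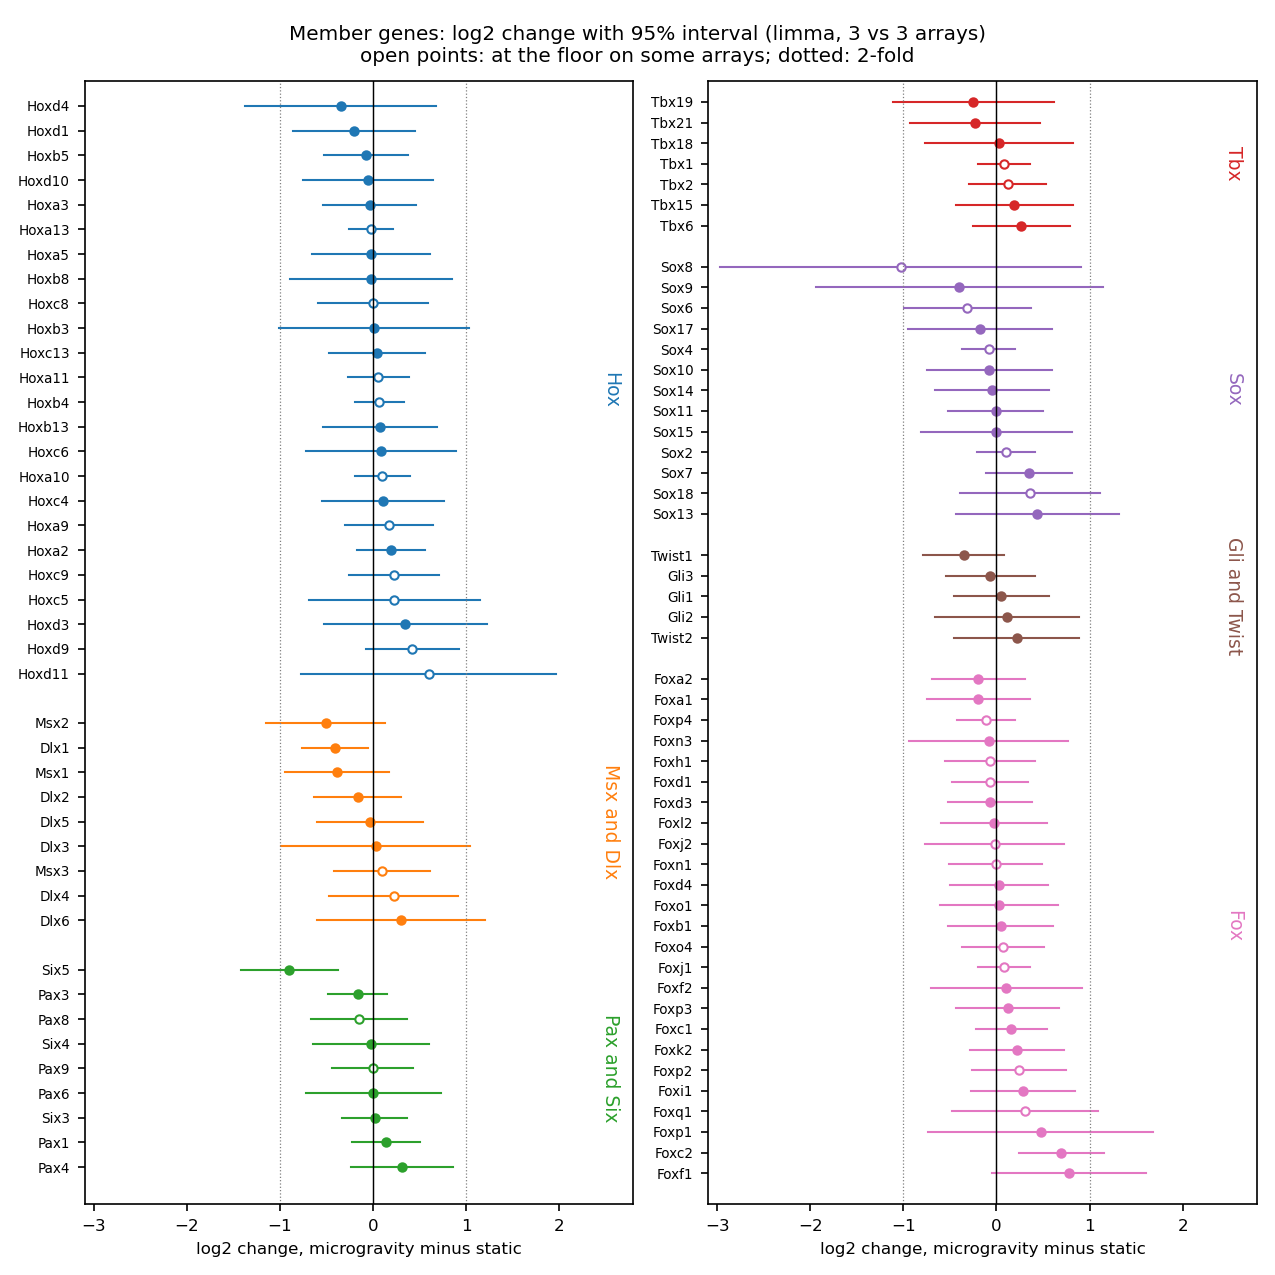
Log2 change of the 92 tested members, microgravity minus static, with 95% intervals from limma on 3 against 3 arrays, grouped by family; open points mark genes at the floor on some arrays and dotted lines mark 2-fold. The intervals of Six5, Dlx1 and Foxc2 exclude 0, and Sox8 (-1.03) has the widest interval.

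Intensities are given relative to each array's median. The lowest value allowed, called the floor, was 0.1 of the median, and anything dimmer was raised to it before log2 was taken. On this scale 23 members were above the array median on every array, 13 were above it on some arrays, 26 were below the median but above the floor throughout, and 30 were at the floor on some arrays. The remaining 3, Foxa3, Hoxa4 and Hoxb9, were at the floor on every array and were not tested. No detection call was used, so a low value is not called absent, and brightness is not compared between the probes of different members. The summed marker levels below add intensities of different probes, so bright probes weigh most in them. Of the 23 members above the median throughout, 2 were at an unadjusted p under 0.05, where 16.8% of the 4035 genes of that kind were, and 3 had groups without overlap, against 23.1%.

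The arrays numbered 2 stood apart in dim probes. The floor held 9.16% of values on static 2 and 6.44% on microgravity 2, against 17.1% to 19.8% on the other arrays, and 13 and 9 members there against 22 to 30. Of the 31 tested members with a mean under 0.2 of the median, 24 had their highest value on one of these arrays. Of 9 osteoblast markers measured, 6 had a mean above the median. Sparc, Col1a1, Col1a2 and Omd were above it on every array, and Alpl and Pth1r on some. Ibsp and Phex, at group means of 0.185 to 0.230, were below it on every array, and Dmp1, a marker of late osteoblasts and osteocytes, was at the floor on some. The summed level of the 9 was 328 to 441 in static cells and 176 to 227 in simulated microgravity, of which the Sparc probe alone gave 173 to 246 and 116 to 154. Of these 9, Pth1r, Alpl and Omd fell and 0 rose, calls that were lost with the replicate number as a block, without both arrays numbered 2 and with any 1 array left out. The summed levels of neural markers (7 measured) were 1.80 to 2.34 and 1.78 to 2.33, those of skeletal muscle (9) 1.16 to 1.31 and 1.03 to 1.46, of endothelium and epithelium (10) 0.954 to 1.25 and 0.910 to 1.48, of cartilage (6) 1.83 to 2.38 and 2.16 to 2.36, of adipocytes (6) 42.8 to 50.6 and 35.8 to 41.6, and of macrophages and blood cells (7) 16.7 to 19.8 and 12.6 to 19.0, static first. The adipocyte sum came mostly from Fabp4 (means 26.1 and 26.5, named with its values seen) and Lpl (16.9 and 9.89). Of the 6 adipocyte markers, 3 had lower and 3 higher values in simulated microgravity. The macrophage and blood cell sum came mostly from Cd14 (13.1 and 10.5). Fewer cells of a type and less RNA per cell cannot be told apart in such samples.

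Six5 had the smallest p of the members. It encodes a homeodomain protein of the sine oculis family whose gene lies beside Dmpk, the myotonic dystrophy kinase gene. Its intensity was 0.941, 0.967 and 0.799 times the array median on the static arrays 1, 2 and 3 and 0.426, 0.559 and 0.470 in simulated microgravity. Every microgravity value lay below every static value. The means were 0.903 ± 0.0903 (SD, n = 3) and 0.485 ± 0.0680, a ratio of 0.536 with a 95% interval of 0.373 to 0.770 (limma log2 change -0.90, SE 0.22, adjusted p = 0.18). The unadjusted level was kept in all 19 alternative fits that measured the gene, with log2 changes of -1.01 to -0.81 when any 1 array was left out. Dmpk, whose probe was dim, had a log2 change of 0.44 (95% interval -0.89 to 1.77).

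Foxc2, a forkhead factor of the axial skeleton and of vessels, had higher values in simulated microgravity. The static arrays gave 1.33, 1.11 and 1.57 and the microgravity arrays 2.22, 2.03 and 2.20, so the groups did not overlap. The means were 1.34 ± 0.228 and 2.15 ± 0.102 (SD, n = 3), a ratio of 1.62 with a 95% interval of 1.18 to 2.22 (limma log2 change 0.70, SE 0.19, adjusted p = 0.221). It stayed at an unadjusted p under 0.05 in all 20 alternative fits, and its log2 change was 0.57 to 0.82 with any 1 array left out. Foxf1, a forkhead factor of lung and gut mesoderm, lies next but 1 to Foxc2 among the protein-coding genes of the RefSeq table. It had 0.167, 0.235 and 0.323 in static cells against 0.452, 0.521 and 0.274 in simulated microgravity. Microgravity 3 lay within the static range, and the log2 change was 0.78 (95% interval -0.05 to 1.61, limma adjusted p = 0.497). It was 1.06 without microgravity 3 and 1.02 without static 3, both at an unadjusted p under 0.05, but 0.54 without static 1 (limma unadjusted p = 0.189). When the floor was raised to 0.5 it was 0.02 (0.793), but only microgravity 2 lay above that floor. That fit could therefore show little change in Foxf1. Mthfsd, the gene between them, was not analysed here.

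Foxc1, the paralog of Foxc2 with a known role in the skull vault, did not share the difference. Its values were 9.37, 8.02 and 10.4 in static cells against 9.39, 11.8 and 9.86 in simulated microgravity. The groups overlapped, and the ratio was 1.12 with a 95% interval of 0.855 to 1.46. The difference between the 2 paralogs was not tested.

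**Figure D2:**
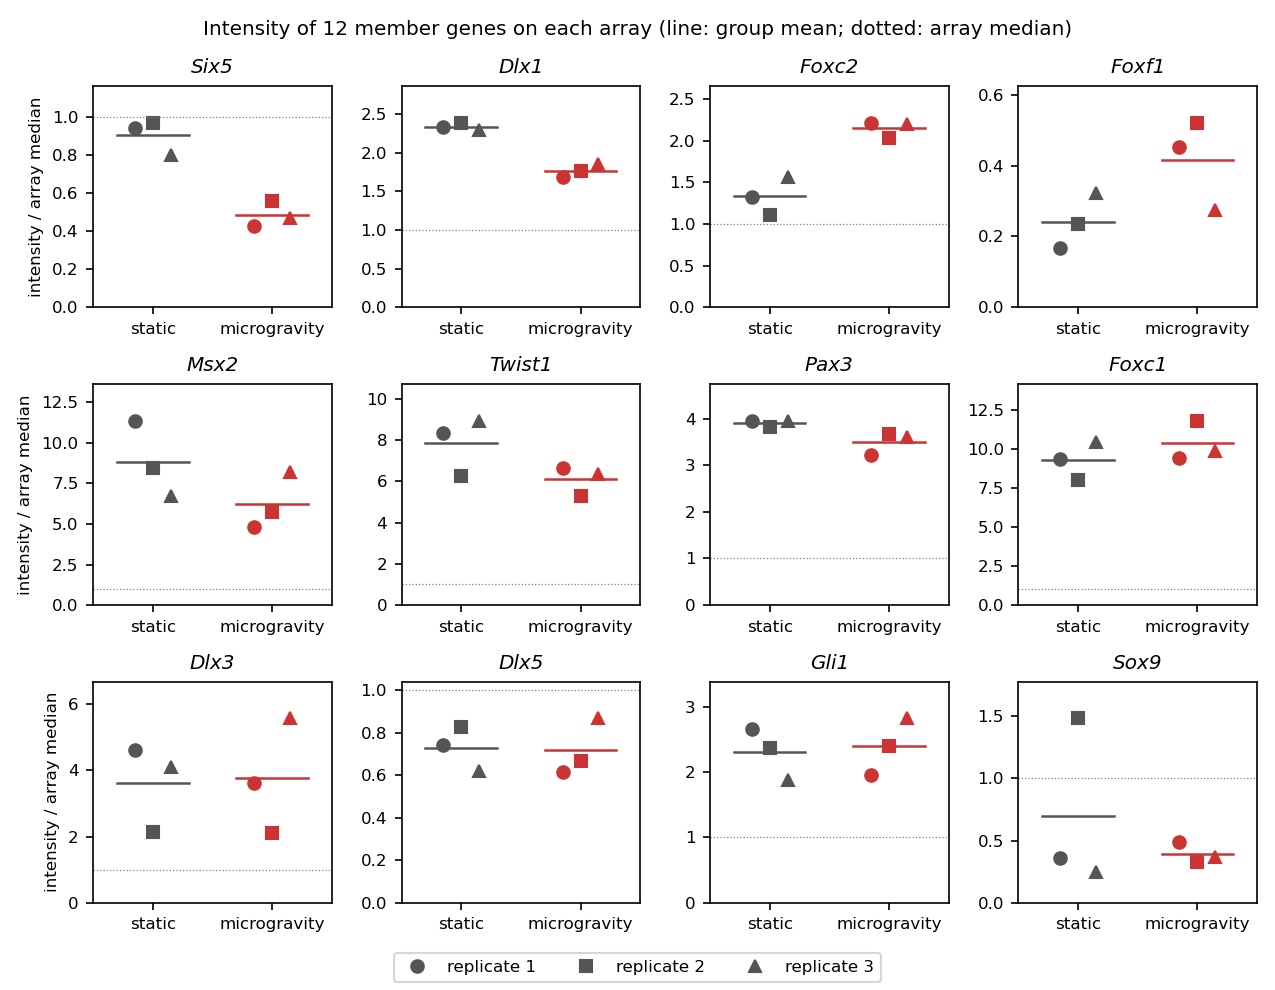
Intensity over the array median for 12 members on each of the 6 arrays, with symbols for the replicate number, a line for the group mean and a dotted line at the array median where it lies in range. Static and microgravity points do not overlap for Six5, Dlx1, Foxc2 and Pax3, and the square of static 2 stands far above the other arrays for Sox9.

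Msx and Dlx factors are homeodomain proteins of the jaw, skull and limb, and those acting on osteoblasts include Msx2, Dlx3 and Dlx5. Dlx1, which patterns the jaw and forebrain, had 2.33, 2.39 and 2.30 in static cells against 1.69, 1.76 and 1.85 in simulated microgravity. The groups did not overlap, and each was tight, at 2.34 ± 0.0437 and 1.77 ± 0.0825 (SD, n = 3). The ratio was 0.754 with a 95% interval of 0.590 to 0.963 (limma log2 change -0.41, SE 0.15, adjusted p = 0.378). The unadjusted level was reached in 11 of 20 alternative fits, and it was lost with each of the 6 arrays left out in turn, static 1, 2 or 3 or microgravity 1, 2 or 3 (limma unadjusted p from just above 0.05 to 0.0955), with log2 changes of -0.44 to -0.37. Dlx2, the neighbour of Dlx1 in the genome, had means of 1.38 ± 0.169 and 1.23 ± 0.137 with overlapping groups.

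Msx2, which promotes growth of the skull vault, had 11.4, 8.46 and 6.72 in static cells against 4.82, 5.71 and 8.21 in simulated microgravity. Microgravity 3 lay within the static range, and the log2 change was -0.51 (95% interval -1.14 to 0.13, limma adjusted p = 0.619). Without microgravity 3 it was -0.72 and without static 3 it was -0.69, both at a limma unadjusted p under 0.05 (0.0288 and 0.0487), while it was -0.31 without static 1 and -0.34 without microgravity 1 (0.294 and 0.287). Msx1, a factor of teeth and palate, had 0.266, 0.357 and 0.360 against 0.268, 0.281 and 0.202, again overlapping (log2 change -0.39, SE 0.23).

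Dlx5, an activator of osteoblast genes, had 0.743, 0.828 and 0.621 in static cells against 0.616, 0.669 and 0.868 in simulated microgravity. Its ratio of 0.978 had a 95% interval of 0.660 to 1.45. Dlx3, which acts in bone, teeth and hair, had 4.63, 2.13 and 4.09 against 3.62, 2.12 and 5.57. The arrays numbered 2 were the lowest of both groups, and the interval of its ratio, 0.504 to 2.06, was wide. Dlx6, the neighbour of Dlx5, had 0.268, 0.593 and 0.234 against 0.418, 0.356 and 0.462. Static 2 was the highest value of Dlx6, and without that array the log2 change went from 0.30 to 0.71 (limma unadjusted p = 0.0225). It was 0.04 without static 3 and 0.14 without static 1. When the floor was raised to 0.5 it was -0.08, but only static 2 lay above that floor. Msx3 and Dlx4 were at the floor on some arrays.

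Promoter bases are shown for Six5, Dlx1 and Twist1, each with the smallest p of its family, and for Msx2, the second in its family, to show what lies upstream of them. Of 95 members, 63 had an entry in the RefSeq promoter table (GRCm38.p6), and Foxc2 was not among them. The 250 bases before the start are given 5′ to 3′ on the gene's strand. Capitals mark TAATTA, the core motif that Msx and Dlx homeodomains bind, and the TATAAA box that marks some start sites, each searched on both strands.
Six5, chr7:19094294-19094543, plus strand: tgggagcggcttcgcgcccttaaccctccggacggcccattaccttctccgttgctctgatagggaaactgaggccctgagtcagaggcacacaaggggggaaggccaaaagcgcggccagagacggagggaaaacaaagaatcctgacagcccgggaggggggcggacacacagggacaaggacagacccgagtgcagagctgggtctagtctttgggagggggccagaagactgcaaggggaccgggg
Dlx1, chr2:71529195-71529444, plus strand: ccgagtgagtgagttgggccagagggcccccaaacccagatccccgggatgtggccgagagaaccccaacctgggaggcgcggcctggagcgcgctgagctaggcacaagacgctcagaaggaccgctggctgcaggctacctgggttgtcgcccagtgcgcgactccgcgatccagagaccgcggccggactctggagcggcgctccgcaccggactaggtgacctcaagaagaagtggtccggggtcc
Msx2, chr13:53472781-53473030, minus strand: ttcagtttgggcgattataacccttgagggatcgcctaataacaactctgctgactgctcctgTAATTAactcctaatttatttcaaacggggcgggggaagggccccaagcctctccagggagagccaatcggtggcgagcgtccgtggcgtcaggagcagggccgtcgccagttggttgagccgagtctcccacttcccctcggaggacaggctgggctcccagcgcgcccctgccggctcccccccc
Twist1, chr12:33957421-33957670, plus strand: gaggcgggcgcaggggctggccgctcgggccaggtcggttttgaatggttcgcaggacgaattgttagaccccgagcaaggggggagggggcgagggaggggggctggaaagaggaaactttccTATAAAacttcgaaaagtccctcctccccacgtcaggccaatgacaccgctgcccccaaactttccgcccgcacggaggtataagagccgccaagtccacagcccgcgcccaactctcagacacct
Msx2 held 1 TAATTA, which began 187 bases before its start, and Twist1 held 1 TATAAA, which began 126 bases before its start. Neither Six5 nor Dlx1 held either run of letters in this window. TAATTA stood in 4.90% of 27025 promoters and in 5 of the 63 member promoters, and TATAAA in 13.0% and in 7 of 63. The CG dinucleotide occurred 13 times in the Six5 window, 22 in Dlx1, 16 in Msx2 and 18 in Twist1. The median was 15 over the member promoters and 6 over all promoters. The forkhead core TGTTTAC stood in 1 member promoter and in 3.09% of all, and the E-box CANNTG, which Twist factors bind, in 37 members and in 66.0% of all. These matches describe letters only.

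Twist1, a repressor of osteoblast differentiation whose loss closes skull sutures early, had 8.33, 6.27 and 8.94 in static cells against 6.66, 5.30 and 6.35 in simulated microgravity. Static 2 lay among the microgravity values, and the log2 change was -0.35 (95% interval -0.79 to 0.08, limma adjusted p = 0.607). The array numbered 2 was the lowest of each group, and without static 2 the log2 change was -0.51 (limma unadjusted p = 0.0259), while without static 3 or microgravity 2 it was -0.25 (0.269 and 0.257). Twist2, its relative in dermis and bone, had 1.72, 1.15 and 1.26 against 1.26, 1.40 and 2.22, with overlap. The 7 tested partners of Twist, the E proteins and their Id inhibitors, had 0 called genes and a median log2 change of -0.16. Id3 had the smallest p of them, with means of 45.7 ± 12.8 and 29.3 ± 6.07 (SD, n = 3) and overlapping groups.

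Gli factors end the Hedgehog pathway, with Gli1 as an activator and a target, Gli2 mainly as an activator and Gli3 mainly as a repressor. Gli1 had 2.66, 2.37 and 1.88 in static cells against 1.96, 2.40 and 2.82 in simulated microgravity, and its ratio of 1.04 had a 95% interval of 0.729 to 1.48. Gli2 had a ratio of 1.08 (0.632 to 1.84) and Gli3 one of 0.955 (0.686 to 1.33). All 3 intervals lay within 2-fold. Upstream of them, 13 Hedgehog genes were tested and 0 passed the threshold over all probes, with a median log2 change of -0.04. The receptor Ptch1, also a Hedgehog target, had 0.633 in static cells against 0.556 in simulated microgravity on average. Gas1, a surface protein that helps Hedgehog bind and also arrests growth, had 25.5, 18.0 and 25.3 in static cells against 12.9, 12.7 and 11.1, with no overlap and a ratio of 0.539 (limma adjusted p = 0.116). Sufu, an inhibitor of Gli, also had lower values without overlap, near the floor, and Disp1, which releases Hedgehog, had overlapping groups.

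Of the Hox genes, 24 were tested and 0 had groups without overlap or an unadjusted p under 0.05. Shares over all genes were 16.6% and 11.5%. The median size of the log2 change of Hox genes was 0.08, and 16 had higher and 8 lower values (15 and 9 with quantile or cyclic loess normalization). At the floor on some arrays were 10 of these Hox genes, which also enter the cluster medians below. All of the 10 but Hoxa13 had higher values. In the fit as reported, Hox genes above the floor throughout were evenly split between higher and lower values. Over all genes, 4855 had higher and 3731 lower values (4510 and 4076 with quantile, 4563 and 4023 with cyclic loess normalization). By cluster the median log2 changes were 0.06 for Hoxa (7 tested), 0.01 for Hoxb (5), 0.10 for Hoxc (6) and 0.15 for Hoxd (6), and the Hoxb median was below 0 with quantile normalization. Hox genes above the array median on every array were Hoxa3, Hoxb5, Hoxb13 and Hoxc13. Hoxb5 had 3.76, 4.26 and 3.46 in static cells against 2.94, 3.74 and 4.33 in simulated microgravity. Hoxb13, a factor of the tail and prostate, had 6.66, 5.67 and 4.86 against 4.84 and 7.37, with microgravity 2 empty in the file. Both pairs of groups overlapped. The limb genes Hoxa10, Hoxa11 and Hoxa13 were dim, with group means of 0.0532 to 0.119, and lay at the floor on some arrays.

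The smallest p among Hox genes belonged to Hoxd9 (limma adjusted p = 0.578). Its static values of 0.0595, 0.0778 and 0.0241 were all under the floor, as was microgravity 1 at 0.0269, while microgravity 2 and 3 had 0.177 and 0.137. Without microgravity 1 its log2 change went from 0.42 to 0.64 (limma unadjusted p = 0.00959), and without microgravity 2 it went to 0.23 (0.208). Raised to the floor, the static values of Hoxd9 were equal, so the static group added no spread to these fits. Hoxd11, a gene of the forearm, had 0.0382, 0.130 and 0.0400 against 0.0403, 0.451 and 0.0574. Both arrays numbered 2 were the highest of their groups, and its log2 change of 0.60 was -0.12 without microgravity 2. Hoxc9 had 0.0526, 0.0680 and 0.0536 against 0.0531, 0.161 and 0.0882, with microgravity 2 again the highest. Hoxa2, which patterns the face, had 0.162 ± 0.0141 and 0.185 ± 0.0142 (SD, n = 3), and Hoxc8 had 0.134 in both groups.

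Neighbouring members could be compared in the RefSeq gene order. There were 22 pairs of adjacent tested members, or members 1 gene apart, and in 14 of them the log2 changes had the same sign. The same count over all neighbouring genes was not made. Hoxd11 and Hoxd10 were at 0.60 and -0.05, and Hoxd3 and Hoxd4 at 0.35 and -0.35. Foxq1, Foxf2 and Foxc1, a row of forkhead genes, were at 0.31, 0.11 and 0.16. Foxq1 was at the floor on some arrays, with microgravity 2 the highest at 0.228, and its SE was 0.33. No gene of these pairs passed the threshold.

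The TALE class of homeodomain genes, which holds the Meis and Pbx partners of Hox proteins, was also measured. Of 11 tested TALE genes, with the Irx kind and Tgif1 counted in, 0 passed the threshold. Groups without overlap were found in 4 of them, 2 lower and 2 higher, where 16.6% of all genes had such groups. Meis1 was the only gene of the Meis and Pbx kind among the 4, the others being Tgif1 and genes of the Irx kind. Tgif1, a repressor of TGF-beta targets, had 9.32 ± 1.44 in static cells against 12.7 ± 1.29 in simulated microgravity (SD, n = 3, limma adjusted p = 0.383), Irx5 2.40 ± 0.195 and 1.74 ± 0.294, and Meis1, a main Hox cofactor, 1.51 ± 0.168 and 1.25 ± 0.127. Polycomb and Trithorax genes, which keep Hox clusters off or on, had 0 of 21 past the threshold and a median log2 change of 0.15. Higher values were found for 16 of the 21 (15 and 14 with quantile and cyclic loess normalization). Over all 8586 genes they were found for 4855 (4510 and 4563). Groups without overlap were found in 3 of the 21, where 16.6% of all genes had such groups. Kdm6a, the demethylase that removes the Polycomb mark, had 3.02, 2.40 and 3.13 in static cells against 5.94, 6.45 and 5.65 in simulated microgravity. Its groups did not overlap and its ratio was 2.12 with a 95% interval of 1.63 to 2.76 (limma adjusted p = 0.0669). The adjusted p of Kdm6a over the alternatives ran from 0.0333 to 0.318. Pcgf6 and Scmh1, Polycomb proteins, had ratios of 1.55 and 1.37 without overlap, at adjusted p of 0.172 and 0.450.

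Among the Pax and sine oculis genes, those other than Six5 had small changes. Pax3, a factor of muscle precursors and neural crest, had 3.96, 3.82 and 3.96 in static cells against 3.23, 3.67 and 3.60 in simulated microgravity. The groups did not overlap, but the ratio of 0.893 had a 95% interval of 0.716 to 1.11 (limma adjusted p = 0.856). Pax1, a gene of the vertebral column, had 3.80 ± 0.327 and 4.18 ± 0.468 (SD, n = 3), while Pax9, its partner there, was at the floor on some arrays. Pax4, a gene of the pancreas, had means of 2.13 and 2.65 with overlap. Six3 had a ratio of 1.01 (0.793 to 1.29) and Six4, a gene of muscle, one of 0.989 (0.642 to 1.52). Of the Eya and Dach partners of the sine oculis proteins, 0 of 6 passed. Groups without overlap were found in 0 of the 6, against 16.6% of all genes. Eya1 had the smallest p of the 6, with means of 0.551 ± 0.125 and 0.395 ± 0.114, Dach1 had 2.69 and 2.49, and Dach2 was near the floor.

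Sox factors included the regulators of cartilage, and 0 of the 13 had an unadjusted p under 0.05 or groups without overlap. Shares over all genes were 11.5% and 16.6%. Sox9, the master factor of cartilage, had 0.364, 1.48 and 0.245 in static cells against 0.486, 0.324 and 0.366 in simulated microgravity. Static 2 stood far above all other arrays. The log2 change of Sox9 was -0.40 (95% interval -1.94 to 1.14, limma adjusted p = 0.919), and it turned to 0.37 without static 2. Sox8, its close relative, showed the same array apart, with 0.0642, 0.892 and 0.0418 against 0.0277, 0.0945 and 0.105. Its log2 change of -1.03 (SE 0.82) went to 0.02 without static 2. Sox6, which works with Sox9, had 0.183, 0.190 and 0.0949 against 0.103, 0.153 and 0.116.

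Sox11, a factor of bone progenitors, had 0.545 ± 0.0750 and 0.539 ± 0.0255 (SD, n = 3) on its brighter probe, a ratio of 0.994 with a 95% interval of 0.698 to 1.42, and Sox4 of the same subgroup lay near the floor. The endothelial factors Sox7 and Sox18 had log2 changes of 0.35 and 0.36 with overlap, and that of Sox18 was -0.03 without microgravity 2. Sox13 had 0.850, 0.468 and 0.729 in static cells against 0.668, 1.39 and 0.782, with microgravity 2 the highest. Of 13 tested cartilage genes that Sox9 binds, Col11a1 fell and 0 rose, with a median log2 change of -0.12. Col11a1, a collagen XI chain that osteoblasts also make, went from 6.66 ± 1.14 to 1.95 ± 0.151 (SD, n = 3, limma adjusted p = 0.0295). That call was lost with the replicate number as a block, without both arrays numbered 2 and with any 1 array left out. Epyc, a small proteoglycan, had 0.240 ± 0.0209 on the static arrays and was under the floor on average in simulated microgravity (limma adjusted p = 0.0607). Hapln1, a link protein, had overlapping groups.

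T-box factors had 0 of 7 members with groups without overlap, against 16.6% of all genes. Tbx15, a gene of limb and skull bones, had 0.871, 1.25 and 1.39 in static cells against 1.32, 1.60 and 1.07 in simulated microgravity, a ratio of 1.14 with a 95% interval of 0.741 to 1.76. Tbx6, a gene of early somites, had the smallest p in the family, with 0.294 ± 0.0321 and 0.355 ± 0.0542 (SD, n = 3, limma adjusted p = 0.856). Tbx21, a factor of T cells, had a log2 change of -0.23 (SE 0.29). Tbx1 and Tbx2 were at the floor on some arrays.

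Among the other Fox genes, Foxo1, a stress and insulin responsive factor active in osteoblasts, had 0.891, 1.21 and 0.669 in static cells against 0.925, 0.987 and 0.846 in simulated microgravity. The microgravity values lay inside the static range, and the ratio of 1.02 had a 95% interval of 0.658 to 1.59. Foxo4 was near the floor. Foxp1, a factor of bone and blood lineages, had 1.81, 2.24 and 0.865 against 3.20, 1.10 and 2.68. It was the most scattered forkhead gene above the floor, with an SE of 0.51. Foxp2 was at the floor on all but 1 array. Foxi1, a gene of the inner ear and kidney, had 0.977 ± 0.0406 and 1.21 ± 0.289 (SD, n = 3) with overlap.

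Target genes of Foxo factors were also measured. Of 18 tested, 0 passed the threshold, while 5 had groups without overlap, 3 lower and 2 higher, where 16.6% of all genes did. The median size of the log2 change was 0.34, against 0.20 for all genes and 0.11 for members. Sesn1, a stress-induced regulator of growth signalling, had 3.75, 3.44 and 3.70 in static cells against 2.09, 2.22 and 1.85 in simulated microgravity (limma adjusted p = 0.0951). Pik3ip1, an inhibitor of PI3 kinase, had a ratio of 0.344 (0.211 to 0.559, adjusted p = 0.105), and Gadd45a, a stress and DNA damage gene, one of 2.54 (95% interval 1.5 to 4.33, adjusted p = 0.173). These genes answer to other factors as well.

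Skeletal and limb transcription factors outside these families were the last comparison. Of 39 tested, 0 passed the threshold and 7 had groups without overlap, 5 lower and 2 higher, a share near the 16.6% of all genes, with a median log2 change of -0.08. Prrx2, a homeobox gene of limb and face mesenchyme, had the smallest p. It had 18.0, 17.6 and 14.5 in static cells against 8.64, 9.62 and 9.33 in simulated microgravity. The groups stood well apart, at a ratio of 0.552 with a 95% interval of 0.438 to 0.697 (limma adjusted p = 0.0890, 0.0382 to 0.337 over the alternatives). Prrx1, its relative, was named after its values were seen, and had 4.32, 8.01 and 5.55 against 4.14, 4.12 and 2.70, a ratio of 0.621 (adjusted p = 0.445). Osr1, a zinc finger gene of limb and kidney, had 4.53 ± 0.770 and 6.85 ± 1.40 (SD, n = 3), and Hey1, a Notch target, had lower values near the floor. Beside these, the 3 osteoblast markers that fell did so by larger amounts, with log2 changes of -2.47 for Omd, -2.34 for Pth1r and -2.25 for Alpl, while no member passed the threshold.

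**Figure D3:**
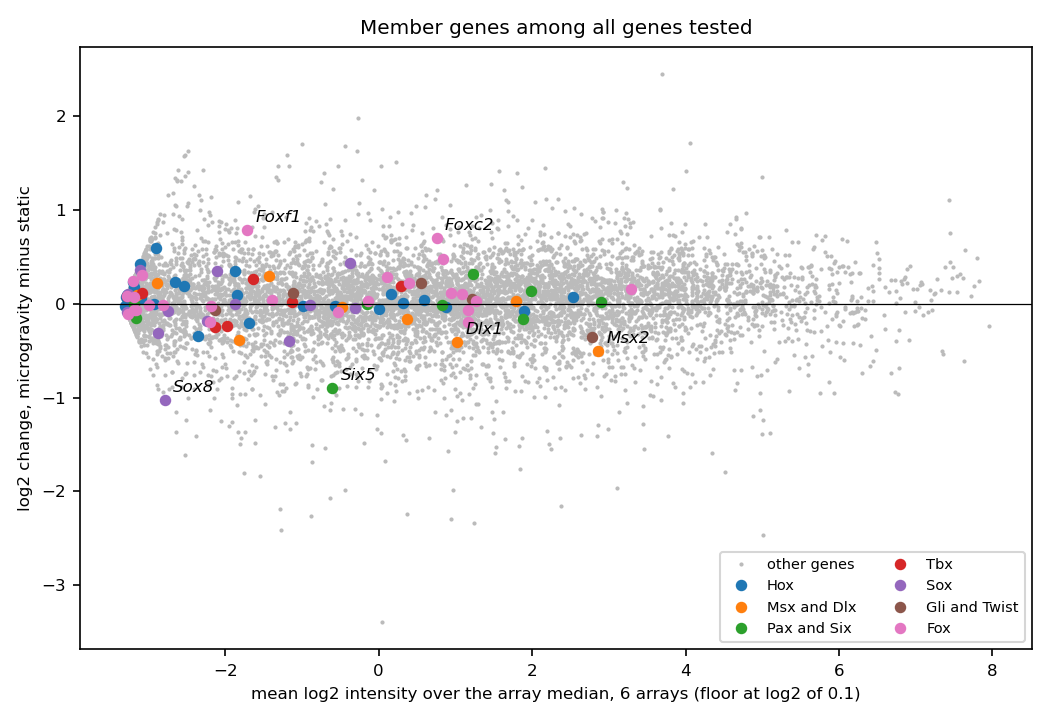
Log2 change, microgravity minus static, against the mean log2 intensity over 6 arrays for all genes tested (grey) and the 92 members (coloured by family). Members lie between -1.03 and 0.78, while those of all genes run from -3.39 to 2.45.

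**Figure D4:**
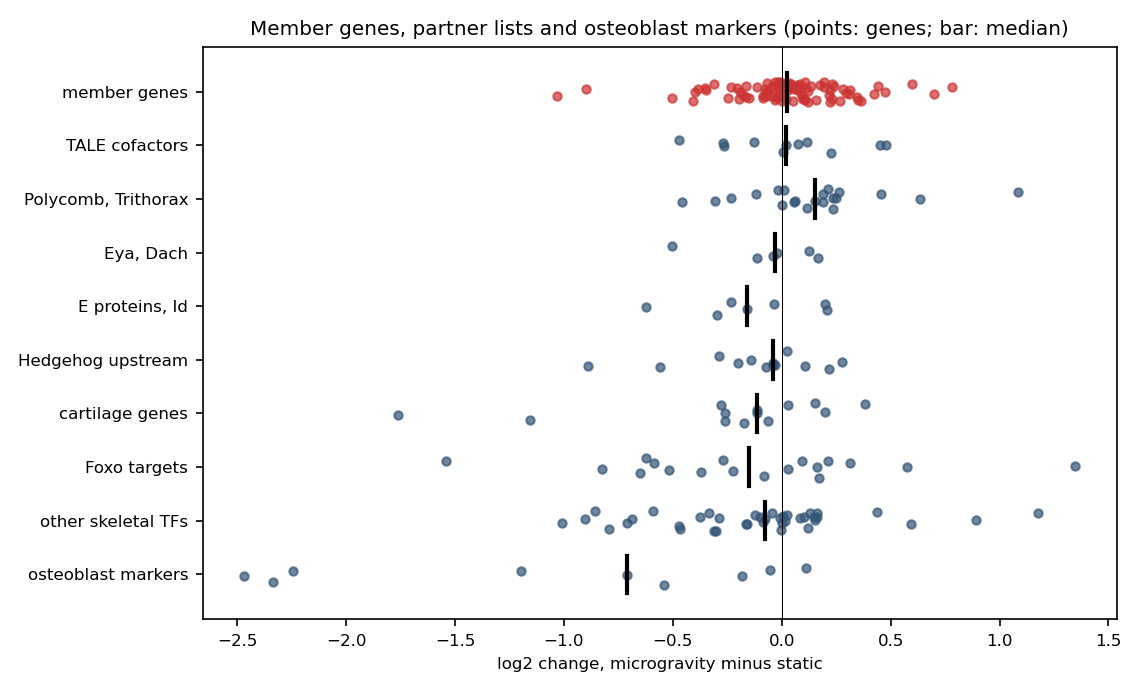
Log2 change of each tested gene for the members, 8 lists of partners, targets or other skeletal factors, and osteoblast markers, with a bar at each median. The member median is 0.03 and that of the osteoblast markers -0.71.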

How the data were processed

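The deposited table holds 1 intensity per probe and array on a linear scale, for 10500 probes on 6 arrays. The sources used here do not state how the authors scaled these intensities, and the array medians were 0.908 to 0.927. Each array was divided by its median, a floor of 0.1 was set and log2 was taken. Probes at the floor on every array, or lacking 2 values in either group, were dropped, which left 10146. A fold on this scale understates changes of dim probes.

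Groups were compared with limma 3.58.1 (R 4.3.3), lmFit and eBayes with an intensity trend, 2-sided, with Benjamini-Hochberg adjustment over all 10146 probes and a threshold of 0.05. Simulated data with known changes, placed only in probes with a static mean above the array median, served to test the fit. They do not show how well changes in dimmer members would be found. With 3 arrays a group, the number of arrays limits the precision. Symbols came from GEO's platform annotation; gene IDs of all 95 members were found in the RefSeq table with the same symbol. No source used here names a genome build for the probes.

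Named genes were all members past the threshold, those at an unadjusted p under 0.05 without overlap, up to 4 per family with the smallest p, a list of known skeletal regulators, and up to 3 per partner list; Dlx4, Msx3, Six3, Foxf2, Foxq1, Hoxa3, Hoxb5, Hoxb13, Hoxc13, Hoxd3, Hoxd4 and Hoxd10 were named in addition, with their values seen. Members and lists were chosen with earlier results of these data known. Deviations from group means correlated at -0.21, 0.45 and -0.18 for same-numbered arrays 1, 2 and 3. Whether same-numbered samples were paired was not tested. Across numbers, static 1 with microgravity 3 gave 0.66 and static 3 with microgravity 1 gave 0.38, and the rest were negative. Whether arrays shared a source of variation across the groups was not tested, and no fit matched arrays of different numbers.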

Additional observations from a re-analysis of the deposited data

How the results depend on the processing

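The count of 0 called members at an adjusted p under 0.05 held in all 20 alternative fits, and at an adjusted p under 0.1 it was also 0 in the fit as reported. Six5 had a limma adjusted p of 0.0540 when the floor was raised to 0.5, which set its values on microgravity 1 and 3 equal. Under array weights the limma adjusted p of Six5 was 0.0944. Members lower at an unadjusted p under 0.05, 2 as reported, were 1 with the floor at 0.05, with the dimmest 50% of probes left out, with the replicate block and without both arrays numbered 2, 3 with array weights, and 1 to 3 with 1 array left out. Members higher, 1 as reported, were 2 with cyclic loess normalization or the floor at 0.2, 3 without both arrays numbered 2, and 1 to 2 with 1 array left out. The replicate block, where numbers were not shown to pair samples, gave 0 called members, 1 lower and 1 higher. The median log2 change of members stayed between -0.04 and 0.08. Of 47 named members, 24 kept their sign in every alternative that measured them. Among changes larger than their SE, signs turned for Sox13 (-0.12) and Sox8 (0.033) without both arrays numbered 2, and with 1 array left out the ranges were -0.12 to 0.96 for Hoxd11, -0.026 to 0.56 for Sox18 and -1.56 to 0.022 for Sox8. The cause was not tested. The floor limits the size of change that members near it can show.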

Other observations

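Several members known from tissues other than bone had intensities above the array median on every array. Six3, a gene of eye and forebrain, had 7.40 ± 0.535 in static cells against 7.52 ± 0.981 in simulated microgravity (SD, n = 3). Foxa1, a gene of endoderm, had 2.42 ± 0.402 and 2.14 ± 0.492, and Foxp3, the factor of regulatory T cells, 1.88 ± 0.419 and 2.02 ± 0.317. Foxd3, a gene of neural crest, had 2.31 ± 0.349 and 2.20 ± 0.311. These genes were chosen after their values were seen, and whether their probes measure only the named gene was not tested.

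Members lower on both arrays numbered 2 than on the other 4 were 10 of 90 with complete values (11.1%), among them Dlx3, Twist1, Foxf2 and Hoxb3, against 11.2% of all genes. Members higher on both were 20 (22.2%), among them Pax9, Hoxd11, Sox18 and Foxo1, against 20.7% of all genes.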
